A study of Mus musculus with 8 samples.

Results

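The comparison described here sets mouse small intestine that received both FGF1/CPP-C and 8 Gy of carbon ions against intestine that received saline and no irradiation. Its members were the 4 arrays whose titles name those groups, 2 in each, of 8 arrays in all. Every animal was a female BALB/cA Jcl mouse aged 8 weeks and received an intraperitoneal injection. One group received FGF1/CPP-C, a chimera that contains fibroblast growth factor 1, with a 12-h pretreatment before the irradiation given in the design text, then 8 Gy. The other received saline and 0 Gy. Tissue was frozen 4 h after the irradiation, and the design text names it as jejunum. The remaining arrays, 2 of saline with 8 Gy and 2 of FGF1 with 8 Gy, helped to estimate the spread and are quoted for reference. The 2 groups compared differ in both the protein and the dose, so the part of each cannot be told apart from this contrast alone. Nothing in the labels ties an array to an animal of its own. The p-values therefore set the difference between the groups against the spread of arrays within groups, pooled over all groups of the series. That spread may be technical.

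Ionising radiation breaks DNA, and the damage is sensed by kinases that stabilise the transcription factor p53. In the crypts of the small intestine p53 switches on genes of cell-cycle arrest and genes of apoptosis, and genes of mitosis are repressed through a complex that binds their promoters. FGF1 binds FGF receptors and signals through the ERK kinases, whose activity is usually read from feedback genes such as the sprouty and dual-specificity phosphatase genes. A carbon-ion beam deposits dense tracks of ionisation, and it is used in radiotherapy.

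Each array was a 1-colour Agilent array with Cy3-labelled RNA. The 75th percentile of the processed signal lay between 1735 and 2165 intensity units over the 8 arrays, and 67.2 to 71.5% of spots were well above background. All levels below are log2 processed signal minus that percentile of the same array, and no level of one gene is set against that of another. The 29 absorptive enterocyte genes were well above background on all 4 arrays of the comparison, and their median level lay between 4.98 and 5.44 over the 8 arrays. Transcripts of other tissue differed between arrays, and those of antrum and Brunner glands were low on both FGF1/CPP-C arrays. The summed log2 level of the stomach antrum list was 10.21 and 9.70 on the 0 Gy arrays, 3.83 and 3.67 on the FGF1/CPP-C arrays, and 8.81 to 10.30 on the other arrays. For the list of Brunner glands, the mucous glands of the duodenum, the median level was 2.82 and 1.26 in 0 Gy against -5.36 and -5.64 in FGF1/CPP-C, and -0.14 to 3.14 on the others. For pancreatic acinar enzymes the median level was 5.39 on 0 Gy replicate 1, 3.04 on saline 8 Gy replicate 2, -1.40 on FGF1/CPP-C replicate 1 and between -4.23 and -3.44 on the other 5 arrays. In bulk tissue, fewer cells of a type and less RNA per cell cannot be told apart.

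The genes that passed included members of the lists of the p53 response, mitosis, inflammation and acute phase, and the glands of the duodenum and stomach antrum. Of 21326 genes tested, 469 (2.2%) passed, 286 (1.34%) higher and 183 (0.858%) lower than in unirradiated saline (limma, Benjamini-Hochberg adjusted p under 0.05). A positive difference was seen for 10084 of the 21326. These shares are the background for the counts given for each list below. The lists were chosen with earlier results of these data known, so their counts are not independent evidence. Of the 469, 467 changed in the same direction on both slides, and for 467 the values of the groups did not overlap, against 60.3% of all genes tested. The test that chose the 469 used these same arrays, so these figures are not independent support. The count of 469 rests on a spread pooled over few arrays. It was 81 without 0 Gy replicate 1, 89 without 0 Gy replicate 2, 89 without FGF1/CPP-C replicate 1 and 80 without FGF1/CPP-C replicate 2. Without an array of another group it was 51 (either FGF1 array), 966 (saline with 8 Gy replicate 1) or 944 (saline with 8 Gy replicate 2). A fit was also made without the 3 arrays of highest antrum level. These were 0 Gy replicate 1, saline with 8 Gy replicate 2 and FGF1 replicate 1, which leaves 1 array in each of those groups. The spread then comes from the FGF1/CPP-C pair alone. A count of genes that passed therefore cannot show whether the calls depend on those arrays, and none is given. In that fit the list medians were 0.75 for p53 targets and -0.57 for mitosis, against 0.80 and -0.50 with all arrays. When slide was entered as a block, 202 genes passed, 134 of them higher. The 469 include 189 of these 202.

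Replicate 1 of each group was on slide 1 and replicate 2 on slide 2, so the comparison could be made within each slide. Across the 21232 genes with values on all 4 arrays the slide differences had r = 0.679, and 74.0% had the same sign. Each slide difference uses its own pair of arrays. A difference of at least 2-fold was seen for 1324 genes on slide 1 and 999 on slide 2. On both slides with the same sign there were 542 such genes, of which 207 passed the test.

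**Figure D1:**
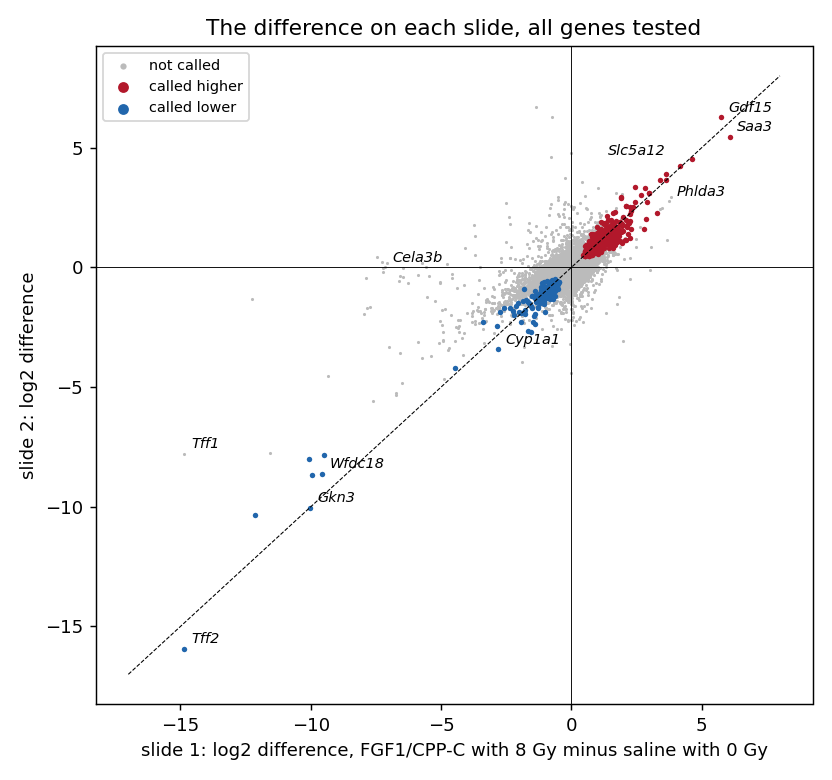
Log2 difference between FGF1/CPP-C with 8 Gy and saline with 0 Gy on slide 1 (horizontal) and slide 2 (vertical), 1 point per gene, with genes that passed in red (higher) or blue (lower) and the dashed line marking equal differences. Genes that passed lie near the dashed line, with Gdf15 and Saa3 at the upper right and Tff2 at the lower left. Tff1 and the pancreatic enzyme gene Cela3b are examples of genes whose differences on the slides were unequal.

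The p53 targets held the clearest rise. Of 45 measured targets, 40 had a positive difference, 21 rose and none fell, with a median log2 fold change of 0.80 against -0.02 over all genes tested. The slide medians were 0.82 and 0.80. With the slide as a block 19 of the 45 rose. Without 1 array 5 rose (0 Gy replicate 1, 0 Gy replicate 2 or FGF1/CPP-C replicate 2), 7 (FGF1/CPP-C replicate 1), 8 (either FGF1 array) or 25 (either saline 8 Gy array).

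Gdf15, a secreted stress cytokine and p53 target, changed most among the genes that rose (probe at chr8:73153293-73153352, mm9). Its level was -3.41 and -3.66 on the 0 Gy arrays and 2.34 and 2.60 on the FGF1/CPP-C arrays. The groups were far apart on both slides, a log2 fold change of 6.01 ± 0.29 (SE, n = 2 per group, limma adjusted p = 0.00238), or 64.3-fold. In irradiated saline its level was 1.68 and 2.42, and the difference of FGF1/CPP-C from those arrays was 0.42 on the log2 scale (adjusted p = 0.553, limma). Phlda3, which opposes the kinase Akt, stood at -0.30 and -0.46 in 0 Gy and at 3.33 and 3.42 in FGF1/CPP-C. It rose by 3.75 ± 0.21 on the log2 scale (SE, limma adjusted p = 0.00473). Psrc1, which encodes a microtubule-associated protein and is a p53 target, was at -4.95 and -5.11 against -2.12 and -1.80, and its log2 fold change was 3.07. None of these 3 genes overlapped between the groups, as was so for 60.3% of all genes tested.

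Genes of p53 feedback and arrest rose too. Mdm2, the ubiquitin ligase that degrades p53, was at 2.57 and 2.77 in 0 Gy and at 3.93 and 3.94 in FGF1/CPP-C, a log2 fold change of 1.26 ± 0.14 (SE, limma adjusted p = 0.0198). Cdkn1a, the inhibitor p21 of cyclin-dependent kinases, was at 2.70 and 2.91 against 3.94 and 3.71, with a log2 fold change of 1.02 ± 0.12 (SE, limma adjusted p = 0.0228). Ccng1, cyclin G1, rose by 2.34 on the log2 scale. Trp53 itself was at -2.80 and -2.37 against -2.71 and -2.49, values that overlapped between the groups (log2 fold change -0.01, limma adjusted p = 0.969). The files place the probes of Trp53, Aen, Rrm2, Etv5 and Fdps on another chromosome than the RefSeq table places these genes, 5 of the 106 named genes with both positions, so what these probes read is less sure.

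Genes of cell death among the p53 targets rose as well. Bax, a pore-forming member of the BCL2 family, was at 1.35 and 1.44 in 0 Gy and at 2.71 and 2.92 in FGF1/CPP-C, a log2 fold change of 1.43 ± 0.12 (SE, limma adjusted p = 0.0122). Bbc3, which encodes the BH3-only protein PUMA, rose by 1.50 ± 0.23 (SE, limma adjusted p = 0.0412), Tnfrsf10b, a death receptor, by 1.85, and the nuclease gene Aen by 2.05 on the log2 scale. Of the wider list of 28 apoptosis regulators, 3 rose and none fell, namely Bax, Bbc3 and Tnfrsf10b, with a list median of 0.26. Pmaip1, the BH3-only gene Noxa, had a log2 difference of 0.30 with opposite signs on the slides (0.70 and -0.11). Fas, a death receptor, had 0.55 (limma adjusted p = 0.0893).

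A match to the p53 response element was found in 1 promoter of the list. RefSeq start sites were matched by symbol in the tables for GRCm38.p6, with 51 promoters of 37 genes of the p53 list, each a window of 300 bases around the start. An exact match to the p53 response element, allowing a spacer inside it and read on either strand, was in 1 of the 51 (1.96%) and in 24 of 32851 promoters of the table (0.0731%). The match is a description of letters in these windows, and the other promoters simply lack an exact match there. The 110 bases before the start of the upstream Cdkn1a promoter (chr17:29090869-29090978, plus strand, GRCm38.p6) are shown with the matched element in capitals, because Cdkn1a is the arrest gene described above.
Cdkn1a: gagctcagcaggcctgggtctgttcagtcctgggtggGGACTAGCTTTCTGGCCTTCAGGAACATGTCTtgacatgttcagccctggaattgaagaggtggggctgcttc

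Part of the genes of mitosis fell. Of 54 measured genes of mitosis and the G2 to M transition, 3 had a positive difference, 13 fell and none rose, with a median of -0.50 and slide medians of -0.47 and -0.53. Ccnb2, cyclin B2, was at 1.39 and 1.50 on the 0 Gy arrays and at 0.16 and 0.01 on the FGF1/CPP-C arrays, a log2 fold change of -1.36 ± 0.20 (SE, limma adjusted p = 0.0349). Ccnb1, cyclin B1, was at -0.75 and -0.46 against -1.61 and -1.45, with -0.93 ± 0.13 (SE, limma adjusted p = 0.0318). Neither gene overlapped between the groups, as was so for 60.3% of all genes tested. Cdkn3, a phosphatase of cyclin-dependent kinases, fell by 1.29, the spindle gene Aspm by 1.11, the mitotic kinase gene Nek2 by 0.92 and Cdc20, an activator of the anaphase-promoting complex, by 0.80 on the log2 scale. Mki67, the proliferation marker Ki-67, was at 2.50 and 2.70 against 1.97 and 2.16 and did not pass (limma adjusted p = 0.0773). With the slide as a block 8 of the 54 fell. Without 1 array the count was 0 (either 0 Gy array or FGF1/CPP-C replicate 1), 1 (FGF1/CPP-C replicate 2 or either FGF1 array) or 15 (either saline 8 Gy array). The list median lay between -0.57 and -0.38 in these fits.

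**Figure D2:**
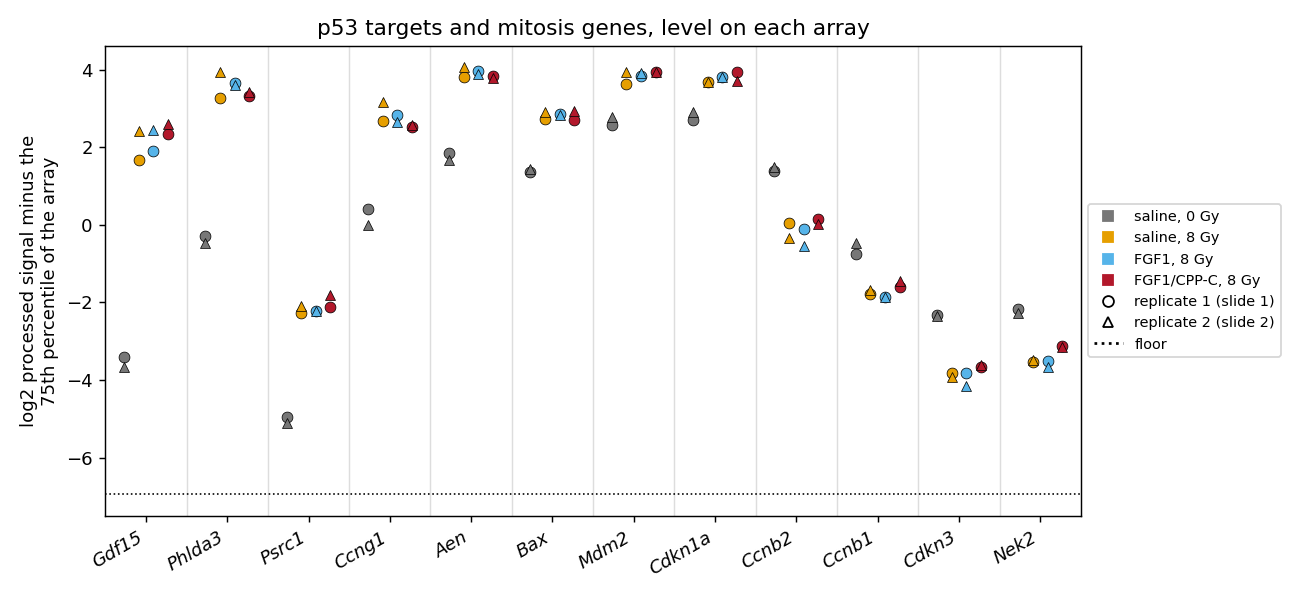
Level on each array (log2 processed signal minus the array's 75th percentile) of p53 targets and mitosis genes, coloured by group, with circles for replicate 1 and triangles for replicate 2, and the floor of the scale dotted. The 2 unirradiated arrays are the lowest for each of the 8 p53 targets from Gdf15 to Cdkn1a and the highest for each of the 4 mitosis genes from Ccnb2 to Nek2.

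Genes of mitosis carry 2 known promoter motifs, the CCAAT box, bound by NF-Y, and the cell cycle homology region (CHR), bound by the DREAM and MuvB complexes. The CCAAT box was searched as CCAAT and the CHR as TTTGAA or TTCGAA, on both strands, and the motifs can share at most 1 letter. Of 47 promoters of 45 mitosis genes matched, 76.6% held a CCAAT box against 37.4% of the 32851 promoters of the same length. A CHR was in 78.7% against 19.2%, and both were in 70.2% against 7.52%. Of the 11 matched promoters of mitosis genes that fell, 11 held a CCAAT box and 9 a CHR. The windows from 130 bases before to 20 after the start are shown for 4 genes that fell, with CCAAT boxes (ATTGG where on the other strand) and CHR letters in capitals. They are Ccnb2 (chr9:70421535-70421684, minus strand), Cdc20 (chr4:118437324-118437473, minus strand), Aspm (chr1:139454643-139454792, plus strand) and Ccnb1 (chr13:100786467-100786616, minus strand), all RefSeq, GRCm38.p6. In 3 of them the spaced boxes stand with a CHR. The Ccnb1 window holds CCAAT boxes and neither TTTGAA nor TTCGAA, and other forms of the CHR were not searched.
Ccnb2: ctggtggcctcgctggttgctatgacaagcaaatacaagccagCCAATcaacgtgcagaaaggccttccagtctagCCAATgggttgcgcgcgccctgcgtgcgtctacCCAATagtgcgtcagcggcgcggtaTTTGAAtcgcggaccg
Cdc20: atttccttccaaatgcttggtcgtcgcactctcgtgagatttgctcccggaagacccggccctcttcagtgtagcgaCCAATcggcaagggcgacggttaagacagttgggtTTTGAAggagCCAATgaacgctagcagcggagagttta
Aspm: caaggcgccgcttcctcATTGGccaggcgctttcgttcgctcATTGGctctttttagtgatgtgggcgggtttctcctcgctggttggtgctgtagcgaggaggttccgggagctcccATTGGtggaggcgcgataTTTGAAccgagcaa
Ccnb1: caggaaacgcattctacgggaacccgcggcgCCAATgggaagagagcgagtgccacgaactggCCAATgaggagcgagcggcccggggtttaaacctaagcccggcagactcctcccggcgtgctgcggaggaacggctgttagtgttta

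A few genes of DNA replication rose. Of 43 measured, 35 had a positive difference, 4 rose and none fell, with a median of 0.32. Rrm2, a subunit of ribonucleotide reductase, was at 0.39 and 0.57 in 0 Gy against 1.85 and 1.89 in FGF1/CPP-C, a log2 fold change of 1.39 ± 0.14 (SE, limma adjusted p = 0.0198). The licensing factors Cdt1 and Cdc6 rose by 1.04 and 0.97, and the S-phase cyclin gene Ccne1 by 0.78. Ccne1 lost its call with the slide block (adjusted p = 0.0579), and all 4 were lost when any 1 of the 0 Gy, FGF1/CPP-C or FGF1 arrays was left out. In the list of DNA damage sensing and repair genes none fell and the median was 0.06. Its mismatch repair gene Msh6 rose by 0.78, and it did not pass with the slide block (adjusted p = 0.0526).

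**Figure D3:**
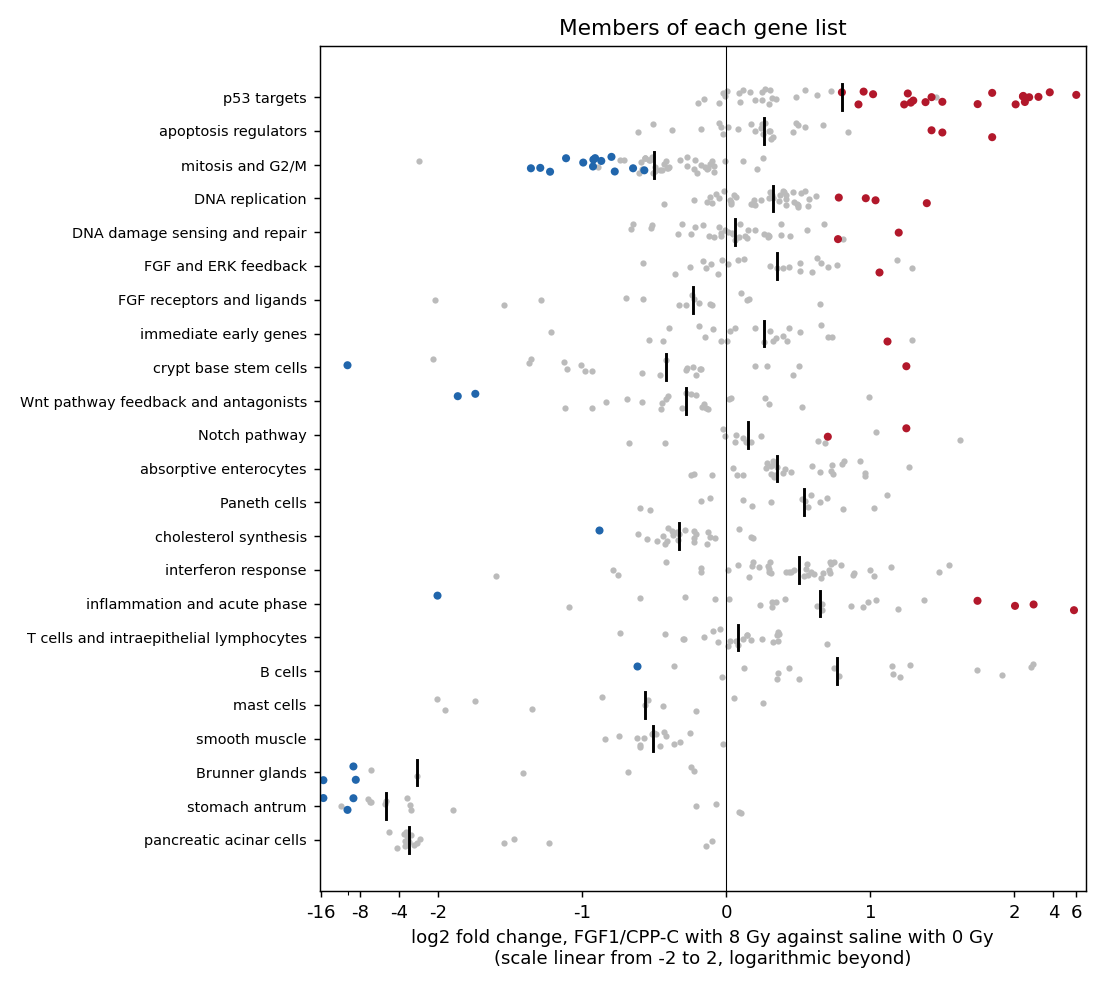
Log2 fold change of every measured member of 23 gene lists between FGF1/CPP-C with 8 Gy and saline with 0 Gy, with members that passed in red (higher) or blue (lower), the others in grey, and a black bar at the list median. The axis is linear from -2 to 2 and logarithmic beyond. The p53 targets hold 21 red points, mitosis holds 13 blue points, and the Brunner gland and stomach antrum lists reach -15.41.

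Of 25 genes of FGF and ERK feedback, 17 had a positive difference, 1 rose and none fell, with a median of 0.35. The share that passed was 4%, near the 2.2% of all genes tested. At an unadjusted p under 0.05 there were 11 (limma), against 4818 of the 21326 genes tested. The gene that rose was Etv4, an ETS factor downstream of ERK, at -0.82 and -0.85 in 0 Gy against 0.20 and 0.24 (log2 fold change 1.06 ± 0.11, SE, limma adjusted p = 0.0198). Its level in irradiated saline was 0.04 and 0.24, and those values overlapped with the FGF1/CPP-C arrays. Dusp6, the ERK phosphatase, was at 2.66 and 3.14 against 3.44 and 2.96, with opposite signs on the slides (log2 fold change 0.30, limma adjusted p = 0.577). Etv5 was at -0.26 and Spry2 at -0.36 in log2 fold change, and neither passed. None of 16 FGF receptors and ligands passed, and their median was -0.23. The receptors had log2 fold changes of -0.28 (Fgfr1), -0.24 (Fgfr2), -0.11 (Fgfr3) and 0.10 (Fgfr4), and Fgf1 itself had -0.33 (limma adjusted p = 0.197).

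Among 25 immediate early genes 1 rose, Ier5 (1.11), and none fell, so 4% passed against 2.2% of all genes tested. Egr1 was at -0.48 and -0.63 against 0.64 and 0.83, with a log2 fold change of 1.29 (limma adjusted p = 0.207). Fos had -0.19 with opposite signs on the slides, and Myc had 0.70 (adjusted p = 0.075, limma). Of 26 genes of growth factor and ligand-driven regeneration none passed, and the median was 0.00. Ereg, which encodes the EGF receptor ligand epiregulin, had a log2 fold change of 1.09 (limma adjusted p = 0.0696).

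The largest decreases were in genes of Brunner glands and the stomach antrum. Tff2, a trefoil peptide of gastric and Brunner gland mucus, was at 8.85 and 8.99 on the 0 Gy arrays, where its spots were saturated, and at -6.02 and -6.95 on the FGF1/CPP-C arrays, where it was not well above background. Its level was at least 41760-fold lower (log2 fold change -15.41 ± 0.34, SE, limma adjusted p = 0.000144). Saturation and the floor limit these values, so the SE and p-value may be too small. An "at least" value takes, for each array of the dimmer group, either the measured signal of the gene or the dimmest signal there that counts as well above background, whichever is higher. Where the measured signal was the higher on both arrays, as for Aqp5, Aard and Hoxc5, it equals the fitted fold. On the 4 other irradiated arrays Tff2 lay between 8.15 and 8.64. Gkn3, a gastrokine (probe at chr6:87333375-87333434, mm9), was at 8.37 and 8.23 against -1.66 and -1.82, a log2 fold change of -10.04 ± 0.40 (SE, limma adjusted p = 0.00222). Its spot was saturated on 1 of the 2 unirradiated arrays, so the size of the decrease there is not exact. It lay between 7.18 and 8.17 on the other irradiated arrays. For both genes the 2 FGF1/CPP-C arrays stood below all 6 others.

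Wfdc18, a whey acidic protein family gene, was at 4.81 and 3.39 in 0 Gy against -4.75 and -5.23 in FGF1/CPP-C, a log2 fold change of -9.09 (limma adjusted p = 0.0237). The water channel gene Aqp5 was at 3.22 and 1.26 against -6.86 and -6.74, at least 525-fold lower (limma adjusted p = 0.0351). Wfdc2, another gene of that protein family, was at 2.82 and 0.87 against -6.69 and -6.95, at least 391-fold lower (limma adjusted p = 0.0468). With the slide block Wfdc18 passed (adjusted p = 0.0485) and Aqp5 and Wfdc2 did not (0.0623 and 0.0752). On the other irradiated arrays each of these 3 genes was lower on saline replicate 1 and FGF1 replicate 2 than on saline replicate 2 and FGF1 replicate 1.

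Of 17 measured antrum genes 3 fell and none rose, with a median of -5.07 and slide medians of -6.58 and -3.14. Without 0 Gy replicate 1 the median was -2.83. Without any 1 array of the 0 Gy, FGF1/CPP-C or FGF1 groups 2 antrum genes fell and 1 Brunner gland gene fell, and without either saline 8 Gy array 5 of each list fell. On the FGF1/CPP-C arrays 5 of the 17 were not well above background on either array, namely Tff1, Tff2, Aqp5, Vsig1 and Mucl3, and all 17 were well above it on both 0 Gy arrays. Of 9 Brunner gland genes 3 fell, Tff2, Wfdc2 and Aqp5, with a median of -2.94. Egf, Dmbt1 and Aqp3 of that list had log2 fold changes of -0.68, -0.23 and -0.25. Of 19 pancreatic acinar genes none passed. Their median was -3.37 and it was 0.19 without 0 Gy replicate 1, so that array set the value. The antrum and Brunner lists were drawn from earlier results of these arrays, and their counts are not independent evidence. Whether the differing share of antrum, duodenal or pancreatic transcripts has a part in the other results was not tested.

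Further genes of regional identity and transport changed alongside. Nkx6-3, a homeobox gene of the antrum and duodenum, was at 2.70 and 2.68 in 0 Gy against 1.16 and -0.02, a log2 fold change of -2.12 (limma adjusted p = 0.0456, and 0.0633 with the slide block). Fut2, a fucosyltransferase of mucosal glycans, fell by 2.30 (limma adjusted p = 0.0337, and 0.0551 with the block). Trpv6, the apical calcium channel of the proximal intestine, was at 3.89 and 4.08 against 1.95 and 1.78 and fell by 2.12 ± 0.13 (SE, limma adjusted p = 0.00512). S100g, the calcium-binding calbindin of enterocytes, fell by 0.95. Both belong to the list of 26 regional markers, of which 2 fell, none rose and the median was 0.12.

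Slc5a12, a sodium-coupled transporter of lactate and other monocarboxylates, rose (probe at chr2:110489432-110489491, mm9). It was at the floor of -6.95 on both 0 Gy arrays and at -2.79 and -2.70 on the FGF1/CPP-C arrays, at least 17.2-fold higher (log2 fold change 4.21 ± 0.36, SE, limma adjusted p = 0.0138). The 0 Gy values were set to the floor and have no spread, so this SE and p-value may be too small. On the other irradiated arrays Slc5a12 lay between -6.95 and -5.75. Hoxc5, a homeobox gene of axial position, was at least 2.42-fold higher (limma adjusted p = 0.0271). Slc5a12 and Hoxc5 entered the contrast only through the FGF1/CPP-C arrays. For both genes the FGF1/CPP-C arrays stood above all 6 others.

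**Figure D4:**
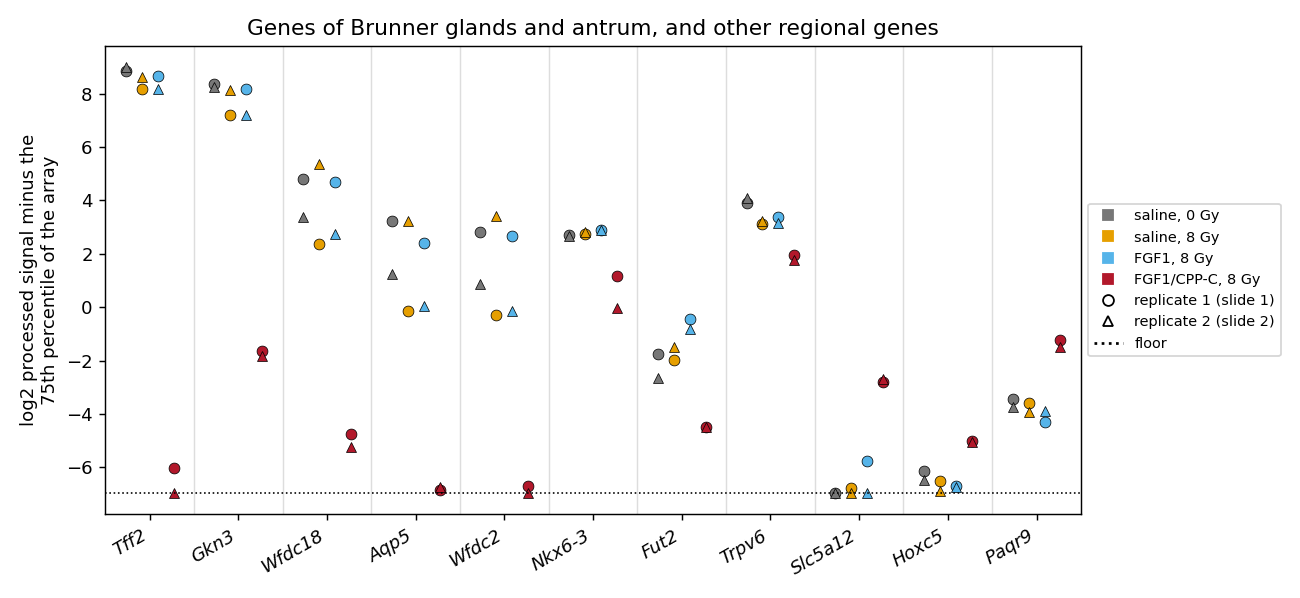
Level on each array (log2 processed signal minus the array's 75th percentile) of genes of Brunner glands, the antrum and other regional genes, coloured by group, with circles for replicate 1, triangles for replicate 2 and the floor of the scale dotted. From Tff2 to Trpv6 the 2 FGF1/CPP-C arrays are the lowest of the 8, and from Slc5a12 to Paqr9 they are the highest.

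Of 24 inflammation and acute-phase genes 4 rose, 1 fell and 19 did not pass, with a median of 0.65. Saa3, a local serum amyloid A protein, was at -5.39 and -6.04 in 0 Gy against 0.68 and -0.58 in FGF1/CPP-C (log2 fold change 5.77 ± 0.44, SE, limma adjusted p = 0.0103). In irradiated saline it was at -2.39 and -2.94, and its difference from those arrays was 2.71 (adjusted p = 0.188, limma). S100a9 and S100a8, the subunits of calprotectin, rose by 2.81 and 2.02, and the neutrophil chemokine gene Cxcl5 by 1.74. S100a9 was at -4.21 and -4.53 in 0 Gy, at -3.76 and -4.68 in irradiated saline and at -1.33 and -1.78 in FGF1/CPP-C. Its difference from irradiated saline was 2.66 (limma adjusted p = 0.141). The rise was also seen with FGF1 and 8 Gy. There S100a9 was at -1.88 and -1.47, S100a8 at -4.06 and -3.85 and Saa3 at -0.55 and -0.59. The log2 differences of FGF1 with 8 Gy from 0 Gy were 2.70 (S100a9), 2.06 (S100a8) and 5.15 (Saa3). Sele, which encodes E-selectin on endothelium, was at -4.58 and -5.27 on the 0 Gy arrays and at the floor on all 6 irradiated arrays, at least 3.91-fold lower (limma adjusted p = 0.0198). Sele entered the contrast only through the 0 Gy arrays. Its floored values have no spread, so that p-value may be too small. With the slide as a block the counts of this list were again 4 and 1. Without any 1 array of the 0 Gy, FGF1/CPP-C or FGF1 groups 0 or 1 member rose, 0 of them without 0 Gy replicate 2. Outside the list, Mbl2, a lectin of innate immunity, rose by 3.53 (limma adjusted p = 0.0267, and 0.051 with the block), and Itih3, an inter-alpha-trypsin inhibitor chain, by 1.55.

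Of 42 interferon response genes 36 had a positive difference and none passed, with a median of 0.51 and slide medians of 0.63 and 0.39. Among all genes tested 10084 of 21326 were positive. In saline with 8 Gy against saline with 0 Gy, which shares the unirradiated arrays, the median of these genes was -0.14. For FGF1 with 8 Gy against the same 0 Gy arrays it was 0.21. Mx2, a gene of an antiviral GTPase family, had a log2 fold change of 1.47 and Oas3, a sensor of double-stranded RNA, of 1.55 (limma adjusted p = 0.0509 and 0.0542). Oas3 was at -2.69 and -3.04 in 0 Gy, at -2.89 and -2.81 in irradiated saline and at -0.94 and -1.70 in FGF1/CPP-C. With FGF1 and 8 Gy it was at -2.33 and -1.94.

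**Figure D5:**
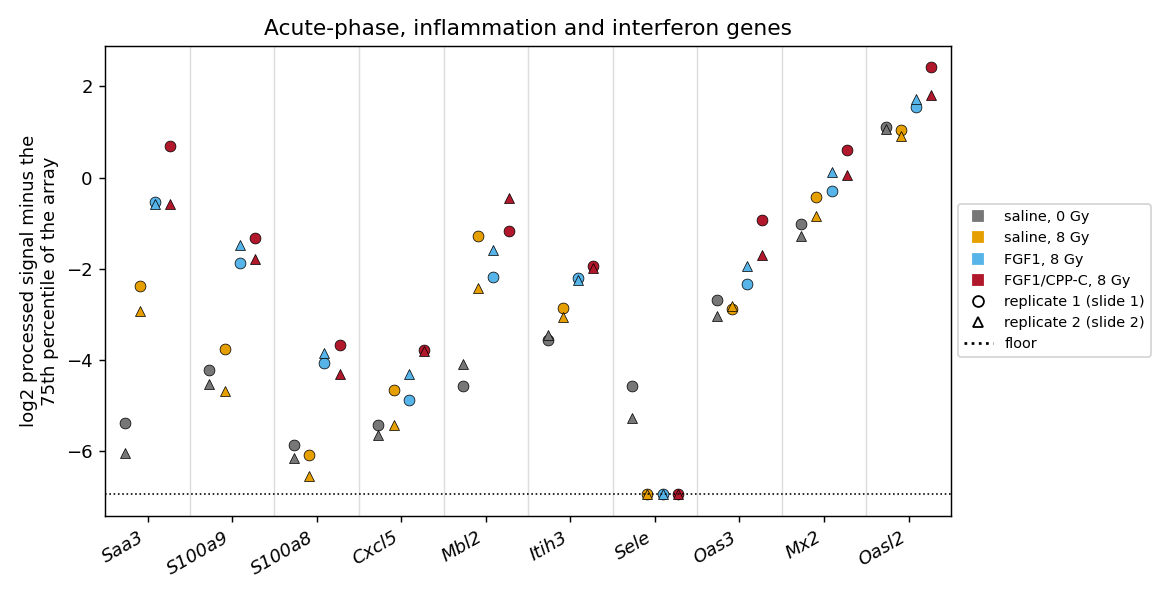
Level on each array (log2 processed signal minus the array's 75th percentile) of acute-phase, inflammation and interferon genes, coloured by group, with circles for replicate 1, triangles for replicate 2 and the floor of the scale dotted. Saa3, S100a9, S100a8 and Cxcl5 are higher on the FGF1/CPP-C arrays than on the 0 Gy arrays, and Sele is at the floor on all 6 irradiated arrays.

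Few genes of differentiated epithelium passed. Of 29 absorptive enterocyte genes 26 were positive, against 10084 of all 21326 genes tested, none passed and the median was 0.35. Ace, the dipeptidase of the brush border, had 0.96 and Apoa1, an apolipoprotein, 0.73 (limma adjusted p = 0.0658 and 0.0793). None of 16 genes listed for Paneth cells passed, with a median of 0.54. The members of smallest p were Guca2b (1.11) and Guca2a (1.02), which encode the intestinal hormones uroguanylin and guanylin. Of 17 goblet cell genes 6 were positive, 1 fell, Tff2, and none rose, with a median of -0.10. Of 22 enteroendocrine genes 8 were positive and 1 fell, the granin gene Chgb, by 0.59, and it did not pass with the slide block (adjusted p = 0.0701).

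Of 23 crypt base stem cell genes 1 rose, 1 fell and the median was -0.42. The gene that fell was Gkn3, whose levels on the arrays are given above, and the one that rose was Nrarp, a Notch feedback gene (1.25, limma adjusted p = 0.0268, and 0.051 with the block). Lgr5, the receptor that marks crypt base stem cells, was at -3.24 and -3.07 in 0 Gy against -2.67 and -2.71, with a log2 fold change of 0.47 (limma adjusted p = 0.221). Olfm4 was at 0.34 and 0.57 against -0.92 and -0.89, with -1.36 (limma adjusted p = 0.132). For neither gene did the 2 groups overlap, as was so for 60.3% of all genes tested. Of 25 genes of Wnt feedback and antagonists 2 fell, the antagonist gene Sfrp5 by 1.74 and Rspo1, a ligand that enhances Wnt signalling, by 1.86. Rspo1 did not pass with the block (adjusted p = 0.0685). Of 16 Notch genes 2 rose, Nrarp and the ligand gene Jag1 (0.70), and neither passed with the block.

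Metabolic genes changed singly. Cyp1a1, the main target of the aryl hydrocarbon receptor, was at -0.30 and -0.07 in 0 Gy against -3.11 and -3.50 in FGF1/CPP-C, a log2 fold change of -3.12 ± 0.19 (SE, limma adjusted p = 0.00491). It was at -2.68 and -2.36 in irradiated saline. Cyp27a1, the sterol 27-hydroxylase, rose by 2.10. They were the 2 of 29 genes that passed in the list of aryl hydrocarbon receptor targets and xenobiotic enzymes. Of 25 cholesterol synthesis genes 3 were positive and 1 fell, Fdps, which encodes farnesyl diphosphate synthase, by 0.89, and the median was -0.33. Of 29 fat absorption genes 2 fell, Pdk4, a brake on glucose oxidation (-1.43), and the fatty acid hydroxylase gene Cyp4a10 (-1.19), and neither passed with the block. Of 22 NRF2 targets 1 fell, Me1, malic enzyme, by 0.77, and it did not pass with the block (adjusted p = 0.0695, limma). None of 19 heat shock genes passed; 2 were positive, the median was -0.22, and the chaperone gene Hsp90aa1 had -0.63 (limma adjusted p = 0.0521).

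Of 20 glucocorticoid-induced genes 2 rose and 1 fell. Fkbp5, a cochaperone of the glucocorticoid receptor, was at 0.00 and 0.13 in 0 Gy against 3.29 and 2.40, a log2 fold change of 2.78 ± 0.32 (SE, limma adjusted p = 0.0221). Cebpb, a transcription factor of the acute-phase response, rose by 0.66 and did not pass with the block (adjusted p = 0.0695, limma), and Pdk4 is the member that fell. In the circadian clock list 1 of 18 rose (5.56%), Tef, a clock output factor, by 1.17. Of 29 ribosome biogenesis genes 1 rose (3.45%), Utp20, by 1.05. Among all genes tested 2.2% passed, so a single gene in lists of this size is near that share. Other genes with large changes were Plcd4, a phospholipase C (at least 7.65-fold higher), the keratin gene Krt15 (log2 fold change 2.90) and Tnfsf4, the ligand of the T cell receptor OX40 (at least 6.63-fold higher). Kel, a blood group peptidase, was at least 6.04-fold lower, Aard at least 7.16-fold lower and the claudin gene Cldn22 4.38-fold lower.

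Markers of immune and stromal cells passed in few cases. None of 23 T cell genes (median 0.08), 21 macrophage and dendritic cell genes (0.11) or 11 MHC class II genes (0.16) passed. Of 18 B cell genes 1 fell, Cd22, by 0.62 (adjusted p = 0.0698 with the block, limma), although 15 were positive and the median was 0.77. The slide medians of this list were -0.18 and 1.65, since the median level was -0.34 on FGF1/CPP-C replicate 2 and between -2.89 and -2.20 on the other 7 arrays. Without that array the list median was -0.04. Ms4a1, which encodes CD20, had slide differences of -0.76 and 6.30. None of 11 mast cell genes passed (median -0.56), and Mcpt4, a mast cell chymase, was at 0.27 and 0.29 in 0 Gy against -0.84 and -1.30 (limma adjusted p = 0.0521).

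None of 18 smooth muscle genes passed, and all 18 differences were negative, with a median of -0.51 and slide medians of -0.49 and -0.50. Among all 21326 genes tested 10084 were positive. Actg2, enteric smooth muscle actin, had a log2 fold change of -0.57 (limma adjusted p = 0.074). The summed log2 level of the list was 7.80 and 7.70 in 0 Gy against 7.28 and 7.17 in FGF1/CPP-C, and 7.43 to 8.01 on the other 4 arrays. Of 21 genes of collagens and fibroblasts 1 rose, the metalloproteinase inhibitor gene Timp1 (1.22, and adjusted p = 0.0623 with the block), and 1 fell, Col15a1 (-1.17). Of 18 endothelial genes 2 fell, Sele and the mucin-like gene Emcn (-0.86, and adjusted p = 0.0695 with the block), and none of 14 mesenteric adipocyte genes passed (median -0.56).

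To place the contrast, the same genes were read in 2 others that share arrays with it. In saline with 8 Gy against saline with 0 Gy 91 of 21309 genes passed (0.427%), 70 higher and 21 lower. The p53 list had a median of 0.83 there against 0.80, and 16 of its members passed. The mitosis list had -0.65 against -0.50, with 11 that passed. In FGF1/CPP-C with 8 Gy against saline with 8 Gy 2 of 21402 genes passed (0.00934%), both lower. They were Tff2 (at least 29060-fold lower, limma adjusted p = 0.000184) and Gkn3 (log2 fold change -9.39, limma adjusted p = 0.00368), each with a saturated spot on 1 of the 2 saline 8 Gy arrays. At an unadjusted p under 0.05 there were 2608 genes, where chance alone gives about 1070. With each FGF1/CPP-C array left out 40 (replicate 1) or 44 (replicate 2) genes passed. With a saline 8 Gy array left out 113 (replicate 1) or 54 (replicate 2) did.

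Several genes of the main contrast with the smallest p against irradiated saline did not pass there. Paqr9, a membrane receptor family gene, was at -3.45 and -3.75 in 0 Gy, at -3.59 and -3.94 in irradiated saline and at -1.21 and -1.51 in FGF1/CPP-C. Its log2 fold change was 2.24 against unirradiated and 2.40 against irradiated saline (limma adjusted p = 0.0193 and 0.0899). Slc5a12, not well above background on either irradiated saline array, had a level at least 16.7-fold higher in FGF1/CPP-C (limma adjusted p = 0.0899). Ces1b, a carboxylesterase gene, was at -4.03 and -3.81 in 0 Gy, at -4.08 and -3.96 in irradiated saline and at -5.54 and -5.52 in FGF1/CPP-C, a log2 fold change of -1.61 and -1.51 (limma adjusted p = 0.00748 and 0.0811). Trpv6 had -1.30 against irradiated saline (limma adjusted p = 0.0977), and Lypd3, a surface protein of squamous epithelium, -1.04 and -1.50 (limma adjusted p = 0.0329 and 0.0971). The vomeronasal receptor gene Vmn1r132 was at the floor on the 6 other arrays and at -5.73 and -5.94 in FGF1/CPP-C, at least 2.01-fold higher than in 0 Gy. These levels are near the floor, and the gene entered this contrast only through the FGF1/CPP-C arrays. Values set to the floor have no spread, so its p-value is not given.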

How the data were processed

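RNA of 8 mouse small intestine samples was hybridised to 1-colour Agilent arrays and read with Agilent Feature Extraction 9.5.3.1, per the submitters' processing notes. The deposited processed signal is, per the file headers, a background-subtracted intensity on a linear scale. From this deposited intensity the log2 was taken, each array's 75th percentile was subtracted, and values below a floor of -6.95 were set to it. Control spots (1377) and outlier spots were left out, and spots of a probe were averaged. A probe was kept if both arrays of a group had it well above background (27559 of 39429). A gene was read from its brightest kept probe and tested if detected in either group compared. A gene detected in a single group therefore entered the test through that group. Values set to the floor also lessen its spread, so its SE and p-value may be too small. Probes of a gene can disagree. Names came from RefSeq accessions (28330 probes), symbols (2378) or the file (8721). Array number limits the precision.

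The 4 group means were fitted to all 8 arrays with limma 3.58.1 in R 4.3.3 (Python 3.11.15 and matplotlib 3.10.9 for figures), with 4 residual degrees of freedom and an adjusted p (Benjamini-Hochberg, all genes tested) under 0.05 as the threshold. With 2 arrays a group, an exact permutation test of 1 gene cannot go below p = 0.333. Replicate numbers match slides in the file headers. The deviations of the same-numbered arrays of FGF1/CPP-C and 0 Gy saline had r = 0.357, and those of 0 Gy and 8 Gy saline -0.519, so the numbers were not taken as pairs.

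Named genes were the 12 per direction of largest change that passed without overlap and with an established symbol, p53, cell-cycle, stem cell and FGF genes named outright, up to 4 that passed per list (or 2 of smallest p), and 6 per direction of smallest p against irradiated saline. Spry4 was not among the genes tested, and 2 genes that the rule took are not reported here. Other genes named, such as Pmaip1, Fas, Aspm, Cdc20, Cxcl5, Tff1, Ms4a1, Egf, Dmbt1 and Aqp3, were chosen after their values were seen. The members and lists were chosen with earlier results of these data known, and the p53 element search was added after the data were seen. Alternatives were quantile normalisation, normexp (offset 50), the series matrix values, other filters, the mean of probes, the 2 groups alone, the slide block, trend and robust moderation, and leaving out arrays.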

Additional observations from a re-analysis of the deposited data

Results flagged for a closer look

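Tff2 and Gkn3 were the 2 genes whose difference between FGF1/CPP-C with 8 Gy and saline with 8 Gy passed the test of that difference itself. Tff2 had a fitted log2 difference of -14.88 and Gkn3 of -9.39. Both had a saturated spot on 1 of the 2 saline 8 Gy arrays, and Tff2 was not well above background on either FGF1/CPP-C array, so it is bounded as at least 29060-fold lower. For both, the 2 FGF1/CPP-C arrays lay below all 6 other arrays, and neither gene passed in saline with 8 Gy against saline with 0 Gy (log2 fold change -0.52 for Tff2 and -0.64 for Gkn3, limma adjusted p = 0.605 and 0.583). The part of the tissue sampled in these values was not tested.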

How the results depend on the processing

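The 469 genes that passed against unirradiated saline became 246 with no filter on dim probes, 36 in a fit to the 2 groups alone, 202 with the replicate block and 730 with trend and robust moderation. They became 0 without the 3 arrays high in stomach antrum transcripts (3925 at an unadjusted p under 0.05, limma) and ranged from 51 to 966 when 1 array was left out. The other normalisations, filters and floors gave 367 to 581. Against irradiated saline the 2 became 9 with quantile normalisation, 4 with normexp, 0 with the series matrix, 1 with probes above background on all 8 arrays, 5 with no filter, 5 with the mean of probes, 0 with the 2 groups alone, 0 without the 3 arrays, and 3 to 113 leaving 1 out. These zeros stood beside 2482, 1543 and 1539 genes at an unadjusted p under 0.05 (limma). For saline with 8 Gy against 0 Gy the 91 became 137 with normexp, 32 with no filter, 0 with the 2 groups alone (1704 unadjusted, limma), 149 with trend and robust moderation, 0 without the 3 arrays (2261 unadjusted) and 12 to 150 leaving 1 out. The causes were not tested. Of 71 named genes that passed, each kept its direction in every setting that measured it. Of these, 48 passed with the replicate block, 36 with no filter and 15 with the 2 groups alone. Many lost the call when a 0 Gy, FGF1/CPP-C or FGF1 array was left out. Leaving out 1 array, Trp53 ranged from -0.23 to 0.20 and Fos from -0.55 to 0.18. Trp53 turned positive with quantile normalisation (0.10), without FGF1/CPP-C replicate 1 (0.10). Fgfr4 turned to -0.02 with the mean of probes and to 0.00 without FGF1/CPP-C replicate 2. Fos became 0.11 without FGF1/CPP-C replicate 2. Arrays hold no count, so signal over background limits dim genes.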
